A study of Mustela putorius furo with 10 samples.

Results

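The cytosolic ribosomal protein genes were examined in peripheral blood mononuclear cells (PBMC) of ferrets exposed to cold. They were taken as the genes whose RefSeq ferret symbol begins with RPL or RPS and a number, or is RPLP0, RPLP1, RPLP2 or RPSA, without the S6 kinases. The rule asked that their signal was well above background on at least 4 of 10 arrays. A total of 56 genes fulfilled it, of 57 that the array names in this way and of 26303 genes tested on the whole array. Of these 26303, 9276 carry a symbol, and the others are target sequences without a symbol that are each counted as a gene. Of the 56, 34 carry a symbol of the large subunit and 22 of the small subunit. They include 49 core genes, 6 paralogs (RPL22L1, RPL3L, RPL7L1, RPL26L1, RPL36AL and RPS27L) and RPS19BP1, which codes for a nucleolar protein that binds RPS19 and is itself no part of the mature ribosome. The gene that did not pass was RPL10L. A further 24 symbols of the rule, among them RPLP0, RPLP2, RPS6, RPL5 and RPL11, were not matched to a target sequence of the array and are not analysed here.

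Male ferrets (Mustela putorius furo) of 3 months of age were kept either at 22 °C (control, 6 animals) or at 4 °C for 1 week (cold, 4 animals), the cold animals being housed individually. How the controls were housed is not given in the sources used here. PBMC were prepared by Ficoll gradient from heart blood of animals with free access to food. Each animal had its own 2-colour Agilent array, on which its RNA was labelled with the green dye Cy3. The red dye Cy5 labelled a common pool of ferret RNA, in which PBMC was mixed with other tissues. Values are log2 ratios of Cy3 to Cy5 after normalisation within the array against spot brightness. A value above 0 means a higher ratio than is usual for spots of similar brightness on that array. It does not mean more signal from the animal than from the pool. A log2 change is the cold mean minus the control mean of such ratios. With 10 animals in all, the precision of each value is limited.

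Ribosomal proteins assemble with ribosomal RNA into the small subunit, which decodes the mRNA, and the large subunit, which forms the peptide bond. Their mRNAs are among the most abundant of the cell, make up a large share of the mRNA of resting lymphocytes, and share a pyrimidine-rich start (the TOP motif) through which mTORC1 signalling controls their translation. The proteins are made in balanced amounts, and several have paralogs that replace them in particular tissues or states.

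The ribosomal protein genes were mostly a little lower in the cold animals, with a median log2 change of -0.12 against -0.01 over all genes tested. Their changes ran from -0.51 (RPL22L1) to 0.22 (RPS14), with quartiles at -0.22 and -0.05. The mean was lower in cold for 45 of the 56 genes and higher for 11. Among all genes tested, 52% had a lower mean in cold. The size of the shift differed between ways of processing the signals. The scanner software's processed signals, arrays centred on their median and the deposited table each put 55 genes lower and 1 higher, with medians of -0.24, -1.27 and -0.66 where the medians of all genes were -0.10, -0.43 and 0.01. With background subtraction alone left out, 54 were lower and 2 higher, with a median of -0.20 (all genes -0.02). At the unadjusted threshold of the study's methods (limma p below 0.01), 3 genes fell, RPL22L1, RPL15 and RPL12, and 0 rose. That is 5.36% of the 56 genes, where 3.43% of all genes tested fell and 5.21% rose. The number that fell was 1 without cold replicate 3 or 4 (of all genes 1.81 and 2.90% fell), 6 without cold replicate 2 (5.82% of all genes) and 5 without control replicate 6 (2.18%). At a looser unadjusted limit of 0.05, 11 of the 56 genes (19.6%) were lower and 0 were higher, against 12.5% lower and 12.2% higher of all genes. After Benjamini-Hochberg adjustment over all genes, 0 of the 56 genes passed 0.05 in limma. Over all genes 0 passed as well (0%), and the lowest adjusted p among the ribosomal protein genes was 0.0736. The 0 over all genes was not stable: 1272 genes passed without cold replicate 2 (4 of them ribosomal protein genes), 633 without control replicate 5, 12 without cold replicate 1, 115 with probes above background on all 10 arrays and 5 with slide position as a block, with 0 ribosomal protein genes in the last 4.

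**Figure D1:**
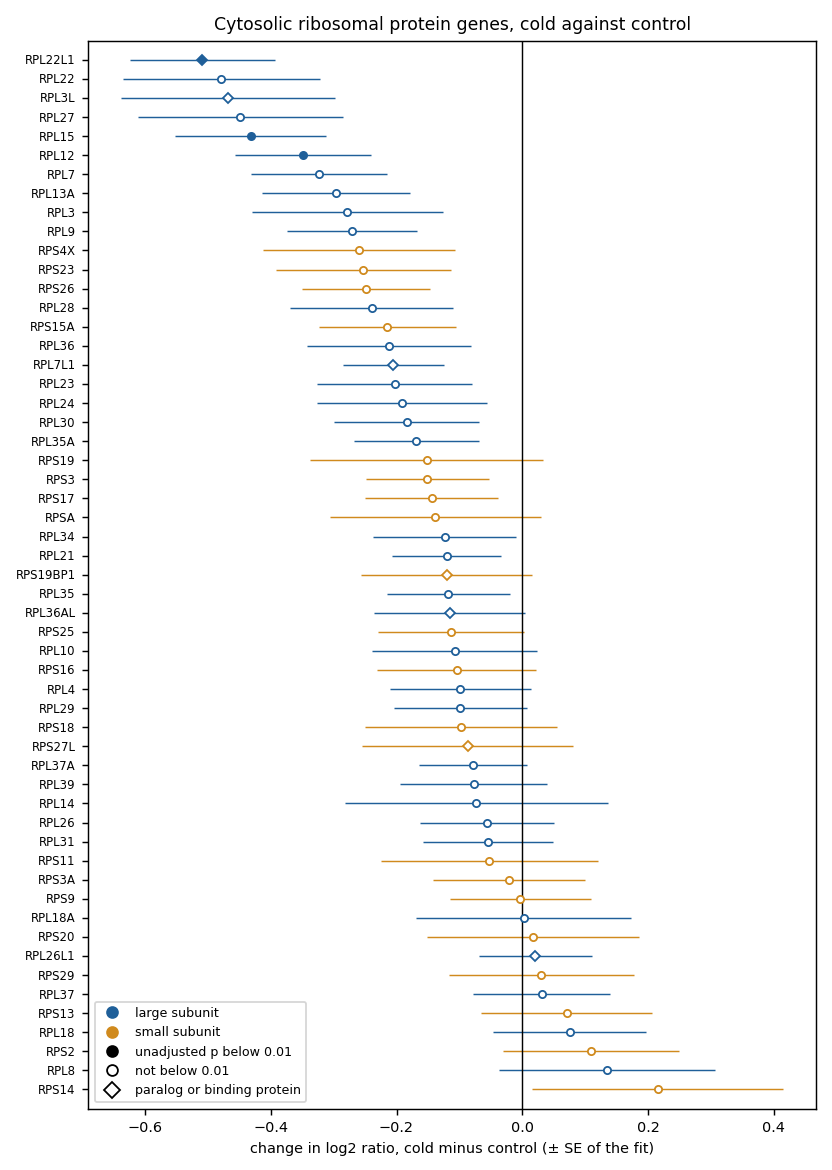
Log2 change (cold minus control) of 55 of the 56 genes, with bars for the standard error of the limma fit, blue for the large and orange for the small subunit. Most points lie left of 0, and the 3 filled points are the genes with an unadjusted p below 0.01, all of the large subunit.

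The shift was compared with the spread between animals. The median ratio over the 56 genes was between -0.27 and 0.00 on the control arrays, with a median of -0.15. On the cold arrays it was -0.30, -0.22, -0.48 and -0.30. Cold replicate 3 was the lowest array of all, while cold replicate 2 lay above control replicates 2 and 6, so that the groups overlapped. Over the animals, the mean ± SD of these medians was -0.14 ± 0.12 for the 6 controls and -0.33 ± 0.11 for the 4 cold animals. Cold replicate 3 held the lowest cold value for 32 of the 56 genes and cold replicate 2 the highest for 26. Among the controls, replicate 4 had the highest value for 25 genes, and replicates 6 and 2 the lowest for 21 and 17. RPL12 was the only one of the 56 genes whose cold values all lay below its control values (1.79%), and 2.15% of all genes tested did so. The reverse, all cold values above all control values, held for 0 of the 56 genes and for 3.07% of all genes tested.

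**Figure D2:**
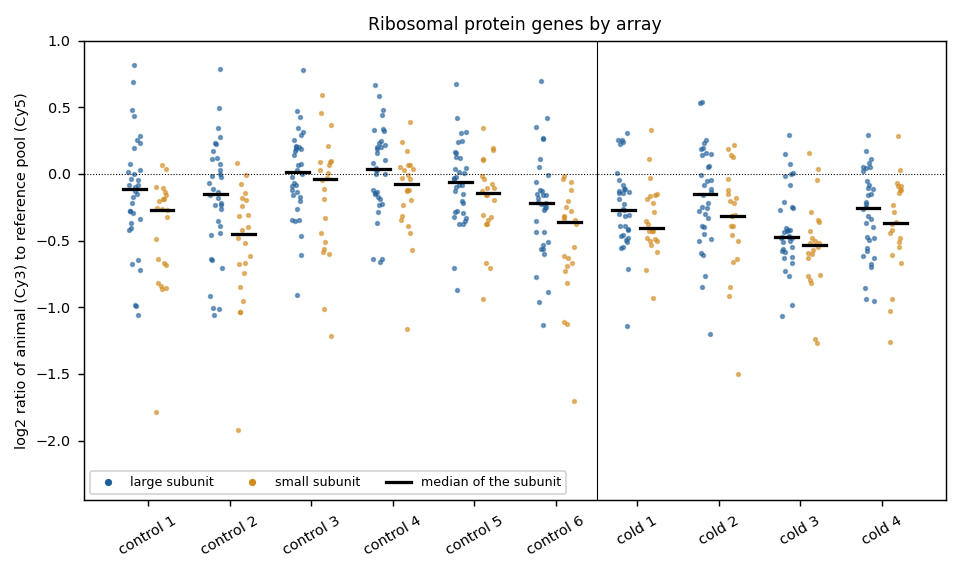
Log2 ratio of animal to reference pool for every ribosomal protein gene on each array, split into large (blue) and small (orange) subunit, with black bars for the median. The small subunit median lies under the large subunit median on all 10 arrays, and both are lowest on the array of cold replicate 3.

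The large and the small subunit genes were compared next. Of the 34 large subunit genes, 29 had a lower mean in cold, with a median change of -0.15. Of the 22 small subunit genes, 16 had a lower mean, with a median of -0.10, which was -0.025 without cold replicate 3 and -0.038 with array weights. At an unadjusted p below 0.01, 8.82% of the large and 0% of the small subunit genes fell, against 3.43% of all genes. At 0.05 the respective shares were 29.4, 4.55 and 12.5%. The difference between the subunits was not tested. All 3 genes with a p below 0.01, and 10 of the 11 below 0.05, were of the large subunit. The exception was RPS26, a small subunit protein at the mRNA exit channel, with a change of -0.25 (SE 0.10, limma adjusted p = 0.169). Without the paralogs and RPS19BP1, the medians were -0.12 for the large and -0.10 for the small subunit. Subunit medians differed on every array in the same direction, by 0.05 to 0.30 on the control arrays and by 0.06 to 0.17 on the cold arrays, the large subunit being higher. The ranges of this difference overlapped between the groups.

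Compared with spots of similar brightness, the ratios of small subunit genes were mostly low already at 22 °C. The control mean was below 0 for 18 of 22 small and for 19 of 34 large subunit genes, against 45.6% of all genes tested. It ranged from -1.45 for RPS14 to 0.65 for RPL22L1. As the ratios are set against spots of similar brightness, they give no level of a gene against the pool. The pool also holds other tissues, and the values give no level of one gene against another. Small subunit genes also varied more between the control animals, with a median SD of 0.24 against 0.18 for the large subunit and 0.16 for all genes. In cold the respective medians were 0.18, 0.16 and 0.20.

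Among the large subunit genes, RPL22L1 had the lowest change and the lowest p. It codes for a paralog of RPL22, and the pair is known for opposite roles in lymphocyte development and in RNA splicing. Its log2 ratio in control animals had a lowest value of 0.25, a median of 0.69 and a highest of 0.82, and the cold values were 0.31, 0.20, 0.00 and 0.06. All cold animals were below 5 of the 6 controls, and control replicate 3 lay within the cold range. RPL22L1 fell by 0.51 on the log2 scale (SE 0.12, limma p = 0.0011, adjusted p = 0.0736; exact permutation p = 0.00952, two-sided, where 0.00476 is the smallest the 210 splits of the arrays can give). All 8 of its probes, on 2 target sequences, were lower in cold, by values between -0.69 and -0.18. RPL22L1 remained below 0.01 in each of the 24 alternatives run that include it. Leaving out saturated spots is counted among the alternatives for each gene. It could not change these genes, as none of their spots was saturated.

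RPL22, the widely expressed partner gene, a known RNA-binding protein, had the next lowest change. The control values had a lowest of -0.15, a median of 0.02 and a highest of 0.28, and the cold values were -0.30, -0.05, -0.56 and -0.94. Cold replicate 2 lay within the control range and the other cold animals below it. The change of -0.48 (SE 0.16, limma adjusted p = 0.118; exact permutation p = 0.0143) did not pass the unadjusted limma threshold of 0.01. All 4 probes of RPL22 were lower.

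RPL15, a core protein of the large subunit, also fell. Its control ratios were at lowest -0.03, at the median 0.23 and at highest 0.48, and the cold ratios were -0.14, 0.06, -0.47 and -0.21. Cold replicate 2 was above control replicate 5, and the other cold animals were below every control. RPL15 fell by 0.43 (SE 0.12, limma adjusted p = 0.0924; exact permutation p = 0.00952). Its p stayed below 0.01 in 19 of the same 24 alternatives, but not without cold replicate 3 or 4, with arrays centred on their median, in the deposited table or with the median over probes. Leaving out saturated or low-gain spots is among the 19 and removed none of its spots.

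RPL12, which with the P proteins forms the stalk base where elongation factors bind, had control ratios with a lowest of -0.25, a median of 0.03 and a highest of 0.20. The cold ratios were -0.32, -0.30, -0.50 and -0.26. The groups did not overlap, but cold replicate 4 and control replicate 6 were 0.01 apart. RPL12 fell by 0.35 (SE 0.11, limma adjusted p = 0.109; exact permutation p = 0.0143), and its limma p was below 0.01 in 8 of the 23 alternatives that measured it, and was not when any 1 array other than control replicate 1 or 6 was left out. In Cy3 alone its change was -0.15 (adjusted p = 0.381).

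RPL27, a core gene of the large subunit, had control ratios between -0.16 and 0.23 (median 0.03), and cold ratios of -0.42, 0.14, -0.67 and -0.68. The value of cold replicate 2 was among the controls and the other cold values were well below them. The change was -0.45 (SE 0.16, limma adjusted p = 0.138; exact permutation p = 0.0333). The remaining large subunit genes with an unadjusted p below 0.05 were RPL7 (-0.32), RPL13A (-0.30), RPL9 (-0.27), the paralog RPL7L1 (-0.20) and RPL3L.

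**Figure D3:**
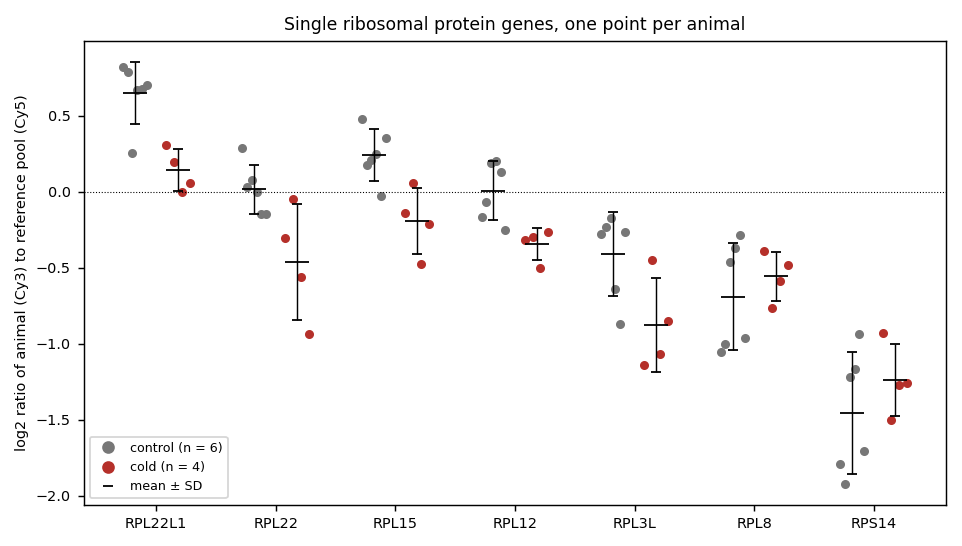
Log2 ratio of animal to reference pool for 7 ribosomal protein genes, with 1 point per animal (grey, 6 controls; red, 4 cold) and the mean ± SD. RPL22L1, RPL15 and RPL12 fell at an unadjusted p below 0.01, whereas for RPL8 and RPS14 3 of the 6 control animals lie below all cold animals.

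RPL3L, the paralog of RPL3 that is known from striated muscle, had control ratios with a lowest of -0.87, a median of -0.27 and a highest of -0.17. The cold ratios were -1.14, -0.45, -1.07 and -0.85, so that 2 of 4 cold values lay within the control range. The change of the ratio was -0.47 (SE 0.17, limma adjusted p = 0.138; exact permutation p = 0.0476). Cy3 alone, without the pool, changed by -0.01. Its Cy3 signal was low, with a control mean of 8.25 on the log2 scale, and 1 of its 4 probes was not well above background on every array.

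The other paralogs did not pass the unadjusted threshold. RPL7L1, a relative of RPL7, had a control mean of -0.19 ± 0.12 (SD, n = 6) and a cold mean of -0.40 ± 0.06 (SD, n = 4). RPL36AL changed by -0.12 (SE 0.12), by -0.037 without control replicate 3 and by -0.18 without control replicate 6. RPS27L, a p53-responsive paralog of RPS27, changed by -0.09 (SE 0.17) and RPL26L1 by 0.02 (SE 0.09). RPS19BP1 changed by -0.12 (SE 0.14), by -0.017 without cold replicate 3, by -0.23 without cold replicate 4 and by -0.35 in Cy3 alone, and passed the threshold of 0.01 in none of these. RPL26L1 and RPS27L turned their sign under some alternatives, so that no direction is given for them.

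Towards the other end of the order were RPS14, RPL8, RPS2 and RPL18, with changes of 0.22, 0.13, 0.11 and 0.08 that did not pass the test (limma adjusted p from 0.535 to 0.739). With 1 array left out, RPS14 ranged from 0.11 (without cold replicate 1) to 0.32 (without control replicate 5), RPL8 from 0.062 (without control replicate 1) to 0.22 (without control replicate 5) and RPS2 from 0.0055 (without cold replicate 2) to 0.19 (without cold replicate 4). RPL18 ranged from -0.021 (without cold replicate 1) to 0.13 (without cold replicate 3). RPS14 codes for a protein of the small subunit platform and is the gene whose loss is known from the 5q- syndrome. Its control ratios had a lowest of -1.92, a median of -1.46 and a highest of -0.94, and the cold ratios were -0.93, -1.50, -1.27 and -1.26. Control replicates 1, 2 and 6 were at -1.79, -1.92 and -1.71, below every cold animal, and the other controls were at -1.22 or above. RPL8, a core large subunit gene, had the same 3 controls at the low end, with -1.06 to -0.96 in replicates 1, 2 and 6 and -0.46 to -0.29 in the others. Its cold ratios of -0.39, -0.76, -0.58 and -0.48 lay above these 3 low controls and reached into the range of the others. The changes of RPS14, RPL8, RPS2 and RPL18 turned negative with the scanner software's processed signals, and also with arrays centred on their median and in the authors' deposited table.

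RPSA, the laminin receptor precursor of the small subunit, changed by -0.14 (SE 0.17, limma adjusted p = 0.644), by -0.26 without cold replicate 4 and by -0.062 without control replicate 3. Its control ratios lay between -0.73 and 0.09 and its cold ratios were -0.50, -0.64, -0.50 and -0.07. The cold values fell within the control range.

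Probes were compared within each gene. The 56 genes had 240 probes, of which 238 were kept and 235 were well above background on all 10 arrays, and 0 probes were detected in 1 group only. All kept probes were lower in cold for 28 genes and higher for 5, among them RPS29, RPS2, RPL8 and RPS14, while 23 genes had probes of both signs. A probe can also bind RNA of a near-identical paralog or pseudogene, and whether it did was not tested.

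As ribosomal protein mRNAs are abundant, the brightness of their spots was examined. No spot of these genes was saturated: 0 of 5680 spots in Cy3 and 0 in Cy5 carried the flag, against 2 Cy3 and 7 Cy5 spots over all genes. The scanner read each array at a high and a low gain, and the software replaced spots beyond the high-gain limit with scaled values of the low-gain scan. In Cy3 this concerned 80.5 to 85.2% of the ribosomal protein spots on each array, and 1.73 to 3.19% of all spots. For 42 of the 56 genes it was every Cy3 spot of every array, and for 5 (RPL22, RPL15, RPL7L1, RPS19BP1 and RPL26L1) none. The ribosomal protein Cy3 medians overlapped between the groups, at 104831 ± 18703 intensity units over the controls (mean ± SD, n = 6) and 105703 ± 14472 over the cold animals (n = 4).

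The reference channel differed more between arrays. In Cy5 the low-gain scan supplied 0 to 41.4% of the ribosomal protein spots on control arrays (median 2.38%), and 75.7, 1.76, 63.9 and 29.0% on the cold arrays. The median Cy5 intensity of these spots ran from 2781 to 17616 on control arrays and from 4802 to 54004 on cold arrays. Both ranges overlapped. In the low-gain share, 3 of 4 cold arrays lay above 5 of the 6 control arrays. Without any spot read from the low-gain scan, 9 of the 56 genes remained, with a median change of -0.20 (all genes -0.01). These are dimmer genes of the set, so their median does not compare with that of all 56. It equals the change of RPL7L1 with all spots. RPL22L1 (-0.49) and RPL15 (-0.43) were below 0.01, where 3.40% of all genes fell. RPL15 had no low-gain spot in either channel, so leaving such spots out could not alter its change.

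**Figure D4:**
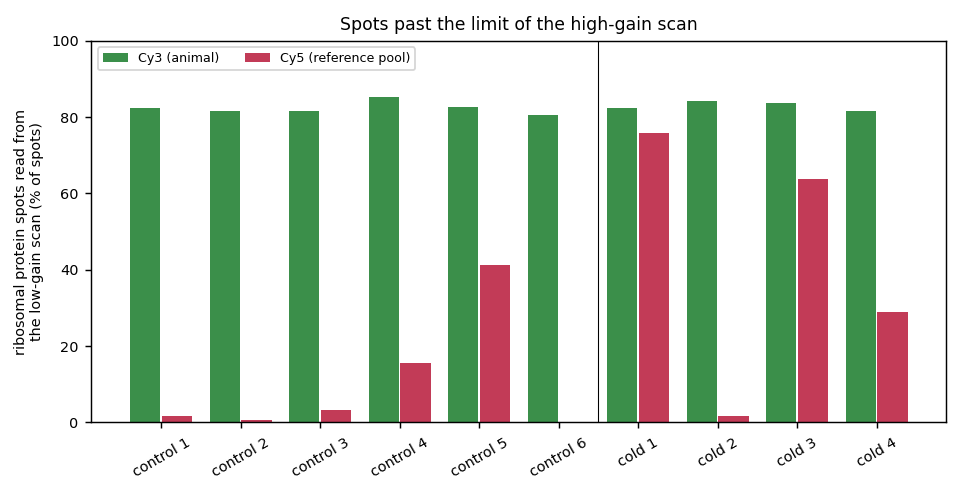
Share of ribosomal protein spots (568 per array) that were taken from the low-gain scan, in per cent, for Cy3 (green) and Cy5 (red) on each array. The Cy3 share is 80.5 to 85.2% throughout, whereas the Cy5 share runs from 0% in control replicate 6 to 75.7% in cold replicate 1.

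Since the Cy5 signal moved between arrays, the genes were also compared in Cy3 alone, with quantile normalisation between arrays. In this setting 50 of the 56 genes had a lower mean in cold, where 57.1% of all genes tested did, and the median change was -0.14 against -0.04 over all genes. A total of 43 genes were lower in both the ratio and Cy3 alone, and 7 genes that were higher in the ratio were lower in Cy3 alone. RPL22L1 and RPL15 passed the adjusted threshold here, as did 2.82% of all genes tested. RPL22L1 had a log2 Cy3 of 14.24 ± 0.22 in the 6 controls and of 13.61 ± 0.22 in the 4 cold animals (mean ± SD). Its change was -0.63 (limma adjusted p = 0.0405). RPL15 had 12.72 ± 0.13 in control and 12.23 ± 0.22 in cold, with a change of -0.49 (limma adjusted p = 0.0446). The cold values of RPL15 were 12.46, 12.23, 11.93 and 12.29 and the lowest control value was 12.56, so that the groups did not overlap in Cy3 alone. RPL22 (-0.42) and RPL27 (-0.51) fell at the unadjusted threshold only. In all, 4 of the 56 genes (7.14%) fell at that threshold in Cy3 alone and 0 rose, where 4.36% of all genes tested fell and 5.48% rose. RPS14 changed by -0.25 and RPL8 by -0.18 in Cy3 alone (limma adjusted p = 0.214 and 0.386), opposite in sign to their ratios.

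**Figure D5:**
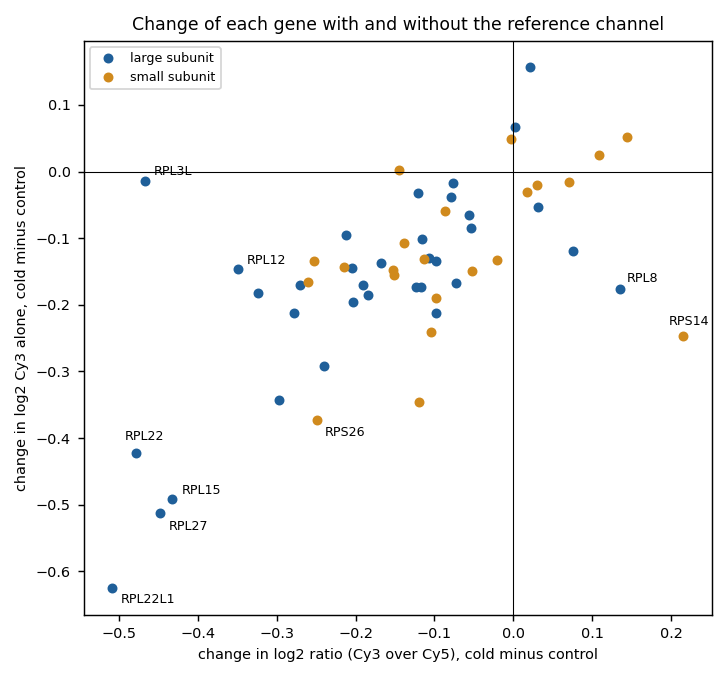
Log2 change of each ribosomal protein gene (cold minus control) in the ratio of Cy3 to Cy5 (horizontal axis) and in Cy3 alone (vertical axis), blue for large and orange for small subunit. RPL22L1, RPL15, RPL27 and RPL22 are low on both axes, RPL3L and RPL12 mainly on the ratio axis, and RPS14 and RPL8 lie above 0 in the ratio and below 0 in Cy3 alone.

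Markers of blood cells moved between the groups as well. Of 13 T cell markers, 11 were measured, and 10 of them had a lower mean in cold, with a median change of -0.56. LCK and CCR7 fell at the unadjusted threshold of 0.01 (18.2%, against 3.43% of all genes). At 0.05, 8 of the 11 were lower, against 12.5% of all genes, whereas CD3D (0.01), CD5 (-0.01) and CD28 (-0.20) were not below it. The mean ratio over the T cell markers was 0.26 to 0.52 on control arrays and 0.14, 0.18, -0.70 and 0.13 on cold arrays. The array of cold replicate 3 was lowest, as for the ribosomal protein genes. Among the controls the order differed. Control replicates 3 and 4 had the lowest T cell means (0.26 and 0.27) but the highest ribosomal protein medians (-0.01 and 0.00). Of 11 monocyte markers, 8 were measured and 7 had a higher mean in cold (median 0.63), whereas CD163 had a lower one (-0.62). At 0.01, 4 rose, where 5.21% of all genes did. Their mean ratio was -0.01 to 0.73 in control and 0.80 to 1.47 in cold, highest in cold replicate 3. All 6 measured neutrophil markers of 11 had a higher mean (median 0.73; 1 of them below 0.01, against the same 5.21% of all genes), with a mean ratio of 0.64 to 1.16 in control and 1.31 to 1.86 in cold. The same held for the 6 measured of 9 platelet markers (2 below 0.01, median 0.87), at -0.04 to 1.35 in control and 0.84 to 1.82 in cold. B cell markers (7 of 10 measured) had a median change of -0.06, at -0.08 to 1.28 in control and 0.50 to 0.86 in cold. Erythroid markers (5 of 9) had a median of -0.35, with 1 gene lower and 1 higher at 0.01 (3.43% and 5.21% of all genes), at 0.27 to 0.99 in control and -0.59 to 0.24 in cold. In bulk RNA, fewer cells of a type and less RNA per cell cannot be told apart, and the part of these markers in the changes of the ribosomal protein genes was not tested.

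Genes that act with the ribosomal proteins were counted in the same way. Counts are to be read against all genes tested, of which 52% had a lower mean, 3.43% fell and 5.21% rose at the threshold of 0.01. Of 24 elongation factors and other genes with TOP mRNAs, 14 were measured, 9 lower and 5 higher, with a median change of -0.04. NACA, a subunit of the complex that meets nascent chains at the ribosome exit, fell by 0.45 (SE 0.09, limma adjusted p = 0.0681; not below 0.01 with arrays centred on their median), and 0 genes of this list rose at the threshold of 0.01. NACA had control ratios from 0.04 to 0.41 (median 0.31) and cold ratios of -0.12, -0.33, -0.29 and -0.04, without overlap. The largest change of this list was a rise, that of NAP1L1 by 0.52 (SE 0.22, limma adjusted p = 0.179).

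Of 63 ribosome biogenesis genes, 52 were measured, 42 with a lower and 10 with a higher mean in cold (median -0.09). At the unadjusted threshold NMD3 and DDX21 fell, which is 3.85% of the 52 and near the 3.43% of all genes, and RRP12 alone rose, where 5.21% of all genes did. At 0.05, 11 of the 52 (21.2%) were lower, against 12.5% of all genes, and 5 (9.62%) had all cold values below all control values, against 2.15% of all genes. NMD3, the adaptor that exports the large subunit from the nucleus, had control ratios between -0.17 and -0.08 (median -0.14). Its cold ratios were -0.56, -0.35, -0.56 and -0.45, well apart from all controls. NMD3 fell by 0.35 (SE 0.07, limma adjusted p = 0.0638), but in Cy3 alone its change was -0.16 (limma adjusted p = 0.472), and it also missed the threshold in the deposited table and with the replicate number as a block. DDX21, a nucleolar helicase of ribosomal RNA synthesis, fell by 0.25 (SE 0.08, limma adjusted p = 0.113), and missed the threshold of 0.01 in 13 of 25 alternatives. RRP12, which takes part in export of the pre-ribosomal subunits, rose by 0.48 (SE 0.14, limma adjusted p = 0.0938), but missed the threshold in 8 alternatives and turned lower with arrays centred on their median.

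Of 14 RNA polymerase I genes, 9 were measured, 7 lower (77.8%, against 52% of all genes) and 2 higher (median -0.08). Only TAF1A, of the promoter factor SL1, passed 0.01 (11.1%, against 3.43% of all genes). It fell by 0.23 (SE 0.07, limma adjusted p = 0.112), and missed the threshold in 17 of 25 alternatives. Of 32 genes that control the translation of TOP mRNAs, 19 were measured, 12 lower and 7 higher (median -0.04), with 0 lower and 1 higher at the threshold of 0.01, a share near the 5.21% of all genes. That gene, EIF4EBP1, codes for the translation inhibitor 4E-BP1, which mTORC1 inactivates. Its control ratios ran from -0.59 to -0.09 (median -0.17) and its cold ratios were 0.33, 0.22, 0.33 and 0.02, all above the controls. EIF4EBP1 rose by 0.47 (SE 0.11, limma adjusted p = 0.0736), missed the threshold in Cy3 alone and in the deposited table, and turned lower with arrays centred on their median.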

How the data were processed

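RNA was measured on 10 arrays, 1 per ferret, on 10 slides scanned on 1 day. The authors deposited spot intensities of both channels from Agilent Feature Extraction 10.7.3.1, with flags for background, saturation and the low-gain scan. A second deposited table gives 1 log2 value for each target sequence and array, which equals mean log2 Cy3 minus mean log2 Cy5 up to constants whose origin is unknown (column medians 7.87 to 8.78).

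Here, median intensities were corrected with normexp (offset 50) and log2 ratios normalised by loess (span 0.3, 4 iterations) in limma 3.58.1 under R 4.3.3. Spots flagged as outliers were left out and spots, then probes, were averaged per gene. Of 181312 probes, 111051 had a share of 0.5 or more of their spots well above background in Cy3 on at least 4 arrays and were kept. Spots well above background made up 50.4 to 63.5% in Cy3 and 27.0 to 64.0% in Cy5. Of 45328 target sequences, 21104 were named through the RefSeq table of assembly ASM1176430v1.1, which places no gene on a chromosome here.

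Cold and control were compared with lmFit and eBayes over 26303 genes, with Benjamini-Hochberg adjustment, and single genes also by a two-sided exact permutation test. The labels do not say whether the animals shared a litter or batch. Named are genes with p below 0.01, the 5 highest and 5 lowest changes, RPSA, RPLP0 to RPLP2 and RPS6 where measured, the paralogs and RPS19BP1, and up to 4 genes below 0.01 of each of 4 gene lists; other named genes were chosen after their values were seen. The most saturated genes were also to be named, but none had a saturated spot. The genes and the 4 gene and 6 marker lists were chosen with earlier results of these data known. Alternatives were other signals, scalings, filters, summaries and tests, and leaving out each array. Of the genes counted, 1 is not reported here by name. The test was checked on simulated data.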

Additional observations from a re-analysis of the deposited data

Results flagged for a closer look

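Of 52 sets of values of 1 gene or score in 1 group that were examined for an animal far from the others, 2 stood out, and chance gives about 1 in 20. RPL22L1 was at 0.25 in control replicate 3, where the other controls lay between 0.66 and 0.82. RPL22L1 without this animal changed by -0.59, against -0.51 with it. RRP12 was at 0.059 in control replicate 6, and the other controls lay between 0.38 and 0.54.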

How the results depend on the processing

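The median of the ribosomal protein genes was below 0, and below the median of all genes, under every alternative run. It was -0.24 (large subunit -0.29) with the scanner software's processed signals, -1.27 (large -1.27, small -1.26) with arrays centred on their median and -0.66 (large -0.67, small -0.64) in the deposited table. Centring moved the median of all genes to -0.43, so that the ribosomal protein genes lay 0.84 below it. Without low-gain spots, an alternative chosen after seeing the data, the large subunit median was -0.32 and the small -0.12 over the genes left. The small value is that of RPS19BP1, which is no part of the mature ribosome, so it does not describe the small subunit. In place of 3 genes, 6 fell at p below 0.01 with processed signals, 8 without background subtraction, and 1 with centring or with the median over probes, where 3.29, 3.63, 3.60 and 3.47% of all genes fell. Cy3 alone gave 2 adjusted calls (2.82% of all genes). The methods' t-test gave 2 calls at its threshold (2.53% of all genes) and 0 after adjustment. Of all calls, 39.7% were lower, against 57.5% with processed signals, 81.5% with centring and 53.8% in the deposited table.

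Leaving out 1 array gave 1 to 6 genes below 0.01 and 0 to 4 adjusted calls. Without cold replicate 2 it was 6 genes, of which RPL27, RPL15, RPL22 and RPL13A passed adjustment (of all genes 5.82% fell and 4.84% passed adjustment), without control replicate 6 it was 5, and without cold replicate 3 or 4 it was 1, RPL22L1. Medians were -0.16 to -0.09 (large -0.19 to -0.12, small -0.13 to -0.03).

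Signs turned for genes that did not pass the test and, with centring, also for RRP12 and EIF4EBP1. With processed signals RPL18 was at -0.095, RPS2 at -0.017, RPL8 at -0.093, RPS14 at -0.035 and RPL26L1 at -0.090. Without background subtraction RPL18 was at -0.053, RPS2 at -0.0092, RPL8 at -0.0076 and RPL26L1 at -2.4e-04. With centring RPL18, RPS2, RPL8 and RPS14 were at -1.12, -1.08, -1.08 and -1.02, RRP12 at -0.21 and EIF4EBP1 at -0.35. In Cy3 alone RPL18, RPL8 and RPS14 were at -0.12, -0.18 and -0.25, and in the deposited table RPL18, RPS2, RPL8 and RPS14 at -0.51, -0.48, -0.48 and -0.43. RPL26L1 was at -0.013 with all 10 arrays above background and between -0.013 and 0.078 with 1 array left out. RPL18 lay between -0.021 and 0.13 and RPS27L between -0.16 and 0.022 with 1 array left out. The cause was not tested.

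Same-numbered cold and control replicates correlated at -0.30, 0.54, 0.10 and -0.19, and each cold replicate correlated best with a control of another number. This cannot tell whether the numbers pair the animals, and the labels do not say. With the replicate number as a block, 4 genes fell below 0.01 (4.23% of all genes), 0 passed adjustment and the median was -0.13 (large -0.19, small -0.10). RPL26L1 was at -0.010 with this block.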
